A study of Macaca fascicularis with 3 samples.

Results

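The let-7 family of microRNAs (miRNAs) was described in the kidney cortex of the cynomolgus monkey (Macaca fascicularis), as the mature guide strands of its hairpins. The 9 members were chosen by name, with no threshold on their values, from the 432 mature miRNAs of the deposited count table. They were mfa-let-7a-5p, mfa-let-7b-5p, mfa-let-7c-5p, mfa-let-7d, mfa-let-7e-5p, mfa-let-7f-5p, mfa-let-7g-5p, mfa-let-7i-5p and mfa-miR-98, given below without the species prefix, and all rows for the 3p arms were left out of the membership. The study held a single group of 3 naïve, untreated animals aged 2 to 3 years, with 1 small RNA library from the kidney cortex of each. The samples analysed here include no treated or control group, so values could be compared between members and between animals only. The animals are called animal 1, animal 2 and animal 3.

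A miRNA is cut from a hairpin transcript by the enzymes Drosha and Dicer, and 1 strand of the duplex, the guide, is kept by an Argonaute protein while the opposite arm is mostly degraded. The guide pairs with messenger RNAs through its seed, a short stretch near its 5′ end, and lowers their translation and stability. The let-7 members carry the same seed and differ from each other in few bases outside it, so they can act on overlapping targets, among them the mRNAs of HMGA2, RAS genes and LIN28. LIN28 proteins in turn block the maturation of let-7 hairpins in embryonic cells, and let-7 is abundant in differentiated adult tissues. In kidney, let-7 has been studied as a repressor of the TGF-beta type I receptor, a receptor that drives fibrosis.

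The libraries held 3957188 to 4707892 counts assigned to the listed miRNAs, of which 303679 to 589771 belonged to the family. The lowest count of any member in any library was 4740, for let-7c-5p in animal 3, so counting error was small beside the differences between animals. Levels are given as counts per 1000000 listed counts (CPM) within a library. Whether different miRNAs enter a library equally well was not tested, so levels of different miRNAs are compared as counts only. For comparisons between animals, CPM were scaled by the trimmed mean of M values (TMM), and a span is the highest over the lowest of the 3 scaled values. The kidney markers (miR-204, miR-194, miR-192, miR-215) together took 5.31% to 6.19% of the counts. Vessel markers took 7.14% to 8.49%, erythroid markers 0.437% to 0.576% and leucocyte markers 0.152% to 0.173%. Markers of striated muscle summed to 361 to 559 CPM, of neurons to 85.7 to 108 CPM and of liver to 4.04 to 8.82 CPM. No marker of these 7 lists that the table held was at 0 in any library. The library of animal 3 stood apart from the others in its low values. The miRNAs averaging 10 or more counts numbered 391. Animal 3 lay more than 4-fold below both other animals in 25 of them, animal 1 in 2 and animal 2 in 0, and no let-7 member was among these. On the high side the animals were alike. Animals 1, 2 and 3 lay more than 4-fold above both others in 1, 2 and 2 of the 391.

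The let-7 family made a major part of the listed miRNA counts of the cortex. Its 9 guide strands took 13.70% of the listed counts in animal 1, with a Wilson 95% confidence interval from 13.66 to 13.73. They took 10.34% (10.32 to 10.37) in animal 2 and 7.67% (7.65 to 7.70) in animal 3. The mean was 10.6% ± 3.02 (SD, n = 3), and 12.0% over animals 1 and 2 alone. Animal 1 was the highest and animal 3 the lowest, with intervals that did not overlap. On the TMM scale the summed family stood at 135489, 98346 and 81603 CPM in animals 1, 2 and 3, a span of 1.66-fold. Without animal 3 the span was 1.38-fold, and without animal 1 it was 1.21-fold. The intervals cover the counting error of reads only, and not the spread between animals or library preparations. Since the reads carried no molecular identifiers, reads copied from 1 molecule could not be told apart.

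Most of these counts came from let-7f-5p, let-7a-5p and let-7g-5p. Together they made 84.57%, 83.00% and 84.75% of the family in animals 1, 2 and 3, a mean of 84.1% ± 0.962 (SD, n = 3). This concentration was close to equal in the 3 animals although the family total was not.

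let-7f-5p, which in primates is made from a cluster with let-7a and let-7d and from another with miR-98, had 42223, 32029 and 29731 CPM in animals 1, 2 and 3, a mean of 34661 ± 6649 (SD, n = 3). It ranked 8th, 10th and 13th among all listed miRNAs. let-7a-5p, the member conserved without change from nematodes to primates, had 49781, 34079 and 17700 CPM, a mean of 33853 ± 16042. Its coefficient of variation of 47.4% was the largest of the 9 members, and its rank among all miRNAs went from 5 in animal 1 to 9 in animal 2 and 15 in animal 3. let-7g-5p, which has a hairpin gene of its own apart from the clusters, had 23827, 19758 and 17610 CPM, a mean of 20398 ± 3157. It was the most even of these 3 members, with a coefficient of variation of 15.5%.

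The other 6 members shared 1.68% ± 0.477 (SD, n = 3) of all counts, from 2.11% in animal 1 to 1.17% in animal 3. let-7b-5p, whose gene lies beside a let-7a gene, had 5191, 3800 and 3064 CPM in animals 1, 2 and 3, a mean of 4018 ± 1080. let-7e-5p, from the cluster with miR-99b and miR-125a, had 4615, 4950 and 1891 CPM, a mean of 3818 ± 1678. It was the sole member whose highest value was in animal 2. let-7d, from the cluster with let-7a and let-7f, had 3317, 2865 and 2478 CPM, a mean of 2887 ± 420, and at 14.5% it had the smallest coefficient of variation of the family. let-7c-5p, from the cluster with miR-99a and miR-125b, had 3377, 2998 and 1198 CPM, a mean of 2524 ± 1164. Its values in animals 1 and 2 were close and its value in animal 3 was far below both. let-7i-5p, from a hairpin gene of its own, had 2868, 1690 and 1755 CPM, a mean of 2104 ± 662. miR-98, a family member by its seed that is encoded beside a let-7f gene, had 1767, 1281 and 1314 CPM, a mean of 1454 ± 272. In both of these last members animal 1 was high and animals 2 and 3 were close together. The mean CPM of let-7f-5p was 23.8 times that of miR-98, the member with the lowest mean, which ranked 74th of the 432 miRNAs.

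**Figure D1:**
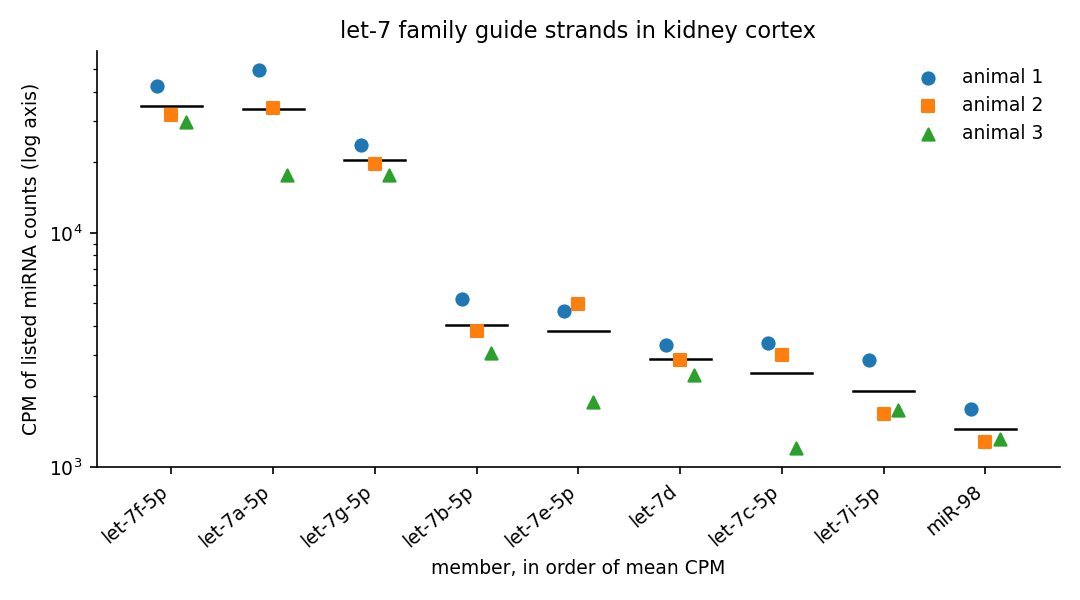
CPM of each let-7 family guide strand (log axis) in the libraries of animals 1, 2 and 3, in order of mean CPM, with a bar at the mean of the 3 animals. let-7f-5p, let-7a-5p and let-7g-5p lie at 17610 CPM and above in every animal and the other 6 members at 5191 CPM and below, and animal 3 is far below the others for let-7a-5p, let-7e-5p and let-7c-5p.

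The order of the members was then compared within libraries, where no scaling between libraries enters. Of the 36 pairs of members, 30 kept the same order in all 3 animals. Of the 8 pairs that are neighbours in mean CPM, 3 did so with a mean log2 ratio above its SD. let-7g-5p exceeded let-7b-5p by 2.37 ± 0.16 (SD, n = 3) on the log2 scale, with ratios of 4.59, 5.20 and 5.75 in animals 1, 2 and 3. let-7i-5p exceeded miR-98 by 0.51 ± 0.17. let-7a-5p exceeded let-7g-5p by 0.62 ± 0.55, but the ratio was 2.09 in animal 1, 1.72 in animal 2 and 1.005 in animal 3, where their intervals overlapped. An exact permutation test flipping the signs of the 3 animals, two-sided, gave p = 0.25 for each of these 3 pairs, the lowest value that this number of animals can give (0.667 after Benjamini-Hochberg adjustment over the 8 pairs), so no order of neighbours could reach a threshold of 0.05.

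The other 5 neighbouring pairs changed order between animals, and their levels do not differ beyond their spread. let-7a-5p was above let-7f-5p in animals 1 and 2, where let-7f-5p had 0.848 and 0.940 times its counts, and below it in animal 3, where let-7f-5p had 1.68 times its counts. let-7b-5p and let-7e-5p, let-7e-5p and let-7d, let-7d and let-7c-5p, and let-7c-5p and let-7i-5p were the remaining pairs. Each of the 5 included let-7a-5p, let-7e-5p or let-7c-5p. Over animals 1 and 2 alone, with the members ranked again, 7 of 8 neighbouring pairs met the rule. That ranking came from the same libraries, and the order had to hold in fewer of them. The number is therefore not comparable with the one over all animals.

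**Figure D2:**
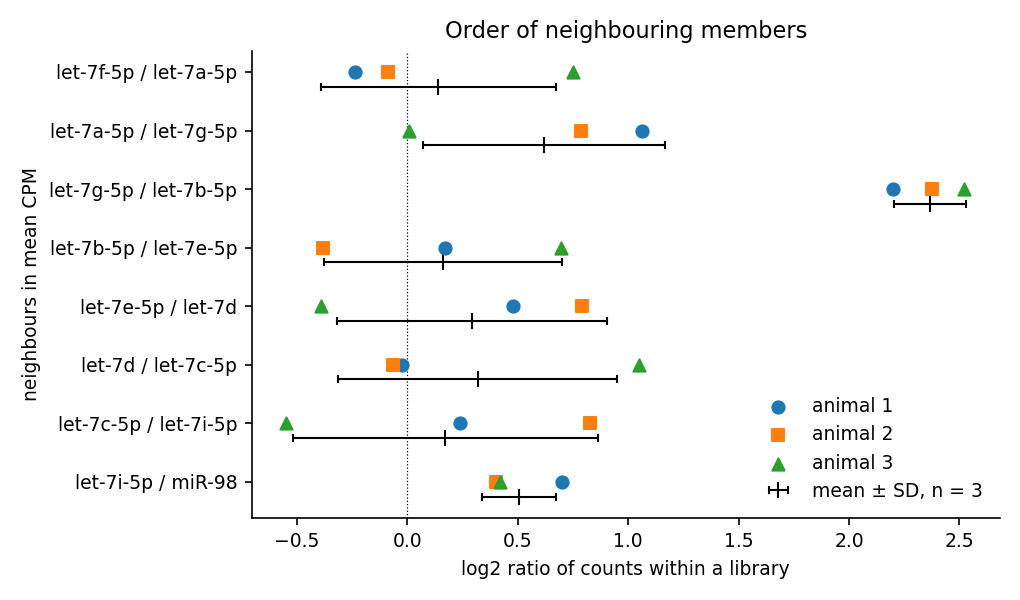
Log2 ratio of counts between neighbouring members within each library (points, animals 1 to 3), with the mean and SD over 3 animals under each row. All 3 points lie to the right of 0 for let-7a-5p over let-7g-5p, let-7g-5p over let-7b-5p and let-7i-5p over miR-98, and to both sides of 0 for the other 5 pairs.

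The make-up of the family differed between animals. let-7a-5p made 36.3% of the family counts in animal 1, 32.9% in animal 2 and 23.1% in animal 3, with Wilson 95% confidence intervals of 36.2 to 36.5, 32.8 to 33.1 and 22.9 to 23.2. let-7f-5p made 30.83%, 30.96% and 38.74%, and let-7g-5p 17.4%, 19.1% and 22.9%. The lead thus lay with let-7a-5p in animals 1 and 2 and with let-7f-5p in animal 3. let-7e-5p made 3.37%, 4.79% and 2.46% of the family and let-7c-5p 2.47%, 2.90% and 1.56%, both lowest in animal 3. let-7b-5p kept the most even share in relation to its size, at 3.79%, 3.67% and 3.99%.

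**Figure D3:**
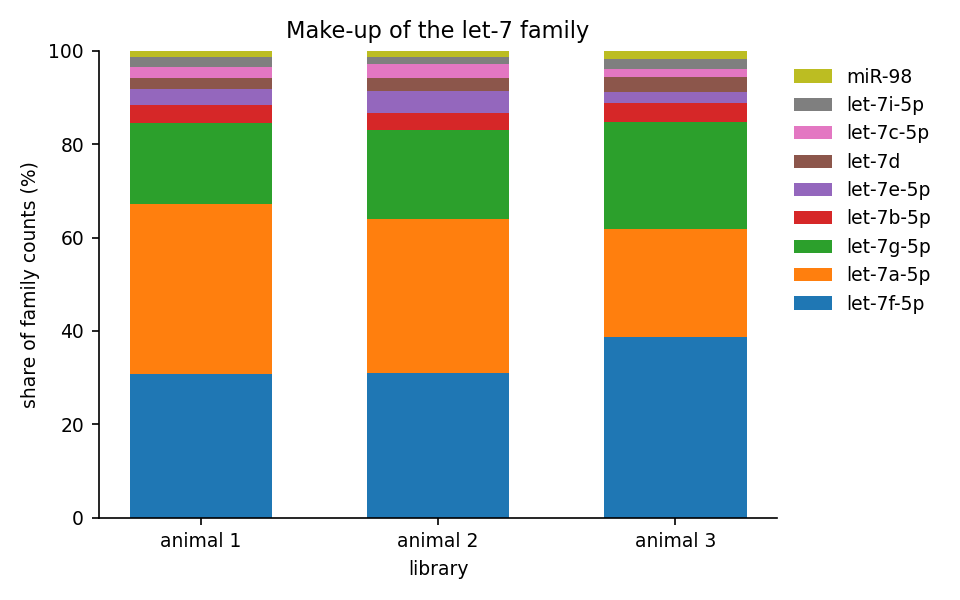
Share of each member in the summed counts of the 9 let-7 guide strands (%), as stacked bars for animals 1, 2 and 3. The part of let-7a-5p is 36.3% in animal 1 and 23.1% in animal 3, and that of let-7f-5p is 30.8% and 38.7%.

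Set against let-7f-5p within the same library, let-7g-5p, let-7d and miR-98 had the narrowest ranges, and let-7b-5p and let-7i-5p somewhat wider ones. let-7g-5p had 56.4%, 61.7% and 59.2% of the counts of let-7f-5p in animals 1, 2 and 3. let-7b-5p had 12.3%, 11.9% and 10.3%, and let-7i-5p 6.79%, 5.28% and 5.90%. let-7d had 7.86%, 8.94% and 8.34%, and miR-98 had 4.185%, 3.998% and 4.419%. The widest were those of the other 3 members, where let-7a-5p had 118%, 106% and 59.5%, let-7e-5p 10.9%, 15.5% and 6.36%, and let-7c-5p 7.999%, 9.36% and 4.03%. These ratios use no scaling between libraries. Reads of near-identical members can be divided between names, or counted under several, in a way that is not stated. Single levels are therefore uncertain, and how far that moves these ratios was not tested. Outside the family, miR-199a and miR-199a-5p had identical counts in every library, as had miR-376b-5p and miR-376c-5p. With 1 name kept of each pair with identical counts, the mean family share was 10.6%.

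All 9 members differed between the 3 libraries by more than counting error, in a chi-square test of equal levels whose p-values were adjusted over the 391 miRNAs (Benjamini-Hochberg). The largest adjusted p of the 9 was 7.69e-79, for let-7d. The same test called 80.6% of the 391 miRNAs. Run on the 259 with a mean count of at least 100, which all members exceed, it called 94.6%. Passing it therefore does not set the family apart. It compares 3 libraries, in which animal and library preparation cannot be told apart, and not conditions. Without animal 1, 8 of the 9 members and 65.2% of all tested miRNAs passed, and let-7g-5p, at 18784 and 18726 TMM-scaled CPM in animals 2 and 3, had an adjusted p of 0.597 in that chi-square test. Without animal 3 all 9 members and 59.3% of 400 tested miRNAs passed.

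By size, 3 of the 9 members spanned more than 2-fold, against 39.9% of the 391 miRNAs. These were let-7c-5p at 2.62-fold, let-7a-5p at 2.62-fold and let-7e-5p at 2.34-fold. The smallest spans were 1.25-fold for let-7d and 1.26-fold for let-7g-5p. The median span was 1.58-fold over the members, 1.71-fold over all 391 miRNAs and 1.54-fold over the 179 of these with a mean of at least 100 CPM, a level that all members exceed. Of those 179 miRNAs, 28.5% spanned more than 2-fold. The members' median span thus lay between those of the 2 sets.

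In direction the members were alike. All 9 were lower in animal 3 than in animal 1, as were 50.9% of the 391 miRNAs. The log2 difference, animal 3 minus animal 1, had a median of -0.60 over the members and -0.02 over all 391 miRNAs. It was -1.39 for let-7c-5p, -1.39 for let-7a-5p and -1.18 for let-7e-5p, and between -0.66 and -0.32 for the other 6. The highest value was in animal 1 for 8 of 9 members (31.2% of the 391 miRNAs), and the lowest was in animal 3 for 6 of 9 (41.9% of the 391). The level went down in the order animal 1, 2, 3 for 5 of 9 members and for 22.3% of the 391 miRNAs. Scaling by DESeq2 size factors or by library totals left all 9 lower in animal 3 than in animal 1, although totals moved the median of the 391 miRNAs to -0.12.

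The members thus fell into those that differed mainly in animal 3 and those that differed mainly in animal 1, a division made after the values were seen, with let-7a-5p in both. From animal 2 to animal 3 the log2 difference was -0.78 for let-7a-5p, -1.16 for let-7c-5p and -1.23 for let-7e-5p, and between -0.15 and 0.22 for the other 6. From animal 1 to animal 2 it was -0.82 for let-7i-5p, -0.52 for miR-98, -0.51 for let-7b-5p and -0.46 for let-7f-5p. let-7a-5p also differed there, by -0.60, while let-7e-5p stood at 0.04. Summed, let-7a-5p, let-7c-5p and let-7e-5p took 5.78%, 4.20% and 2.08% of all counts in animals 1, 2 and 3. The family without let-7a-5p took 8.72%, 6.94% and 5.90%. Markers of other cell types went both ways between the same animals, on the same log2 scale. Of the 4 kidney markers 2 were higher and 2 lower in animal 3 than in animal 1, between -0.59 and 0.20, and of the 4 leucocyte markers 2 were higher and 2 lower, between -0.62 and 0.41. Of the 3 vessel markers miR-145-5p stood at 1.05, miR-143-3p at -0.30 and miR-126 at -0.19. Of the 3 erythroid markers miR-486-5p stood at 1.26, miR-451 at 0.41 and miR-144 at -0.85. Of the 4 muscle markers miR-1-3p, which made most of their sum, stood at -0.62 and the other 3 between 0.59 and 1.05. Both neuron markers were lower, at -0.28 and -0.19, as was the liver marker at -0.88. The part of these cells in the let-7 values was not tested. In a piece of tissue, fewer cells of a type and less of a miRNA per cell cannot be told apart.

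The opposite arms of the hairpins were scarce. None was listed for let-7d or miR-98. Whether the authors' reference held theirs is not given, so a missing row is not read as a low count. The table listed 8 opposite arms, for 7 hairpin names. Over these 7 names the guide strand made 99.7%, 99.5% and 99.4% of the counts of both arms in animals 1, 2 and 3, a mean of 99.5% ± 0.127 (SD, n = 3). The guide strand was the dominant arm of every hairpin name in every library. let-7a-3p and let-7a-2-3p, which come from different let-7a hairpins with the same guide, had 983, 1287 and 789 counts and 40, 43 and 51 counts in animals 1, 2 and 3. let-7b-3p had 408, 566 and 388 counts, and it made the largest share of any opposite arm, 2.65% ± 0.746 (SD, n = 3) of the let-7b counts. The smallest share was that of let-7i-3p, with 12, 2 and 4 counts or 0.0599% ± 0.0360 of the let-7i counts. At that depth its share in single libraries is known only within wide limits, from 0.00689% to 0.0916% in animal 2 (Wilson 95% confidence interval). let-7f and let-7g also had little of the listed opposite arms, at 0.113% ± 0.0265 and 0.120% ± 0.0121. For let-7f only let-7f-3p was listed, although its guide is made from more than 1 hairpin, so its share may be too low.

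Between animals 1 and 3 the opposite arms had other values than the guides, a contrast that 1 library per animal does not allow to be tested. The opposite arms averaging 10 or more counts numbered 7, of which 2 were lower in animal 3 than in animal 1, beside 50.9% of the 391 miRNAs. Their median log2 difference was 0.08, with values between -0.09 and 0.71. The chi-square test, which called 80.6% of the 391 miRNAs, called 2 of the 7 opposite arms, let-7a-3p (adjusted p = 1.63e-05) and let-7b-3p (adjusted p = 0.0123), and both were highest in animal 2. The opposite arms have far lower counts than the members, which limits what this test can call. With DESeq2 size factors, under which 79.8% of the 391 miRNAs were called, it also called let-7a-2-3p (adjusted p = 0.0370) and let-7c-3p (adjusted p = 0.0347), both highest in animal 3.

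The ratio of guide to opposite arm spanned 4.51-fold between animals for let-7c, 3.87-fold for let-7i, 2.51-fold for let-7a and 2.31-fold for let-7e, and 1.22-fold to 1.75-fold for the other 3 names. That of let-7i rests on 2 to 12 counts of let-7i-3p, and its intervals overlapped between all animals. For let-7c the guide was lower by 1.39 on the log2 scale in animal 3 than in animal 1 while let-7c-3p had 32, 43 and 47 counts. The opposite arm accordingly made 0.220%, 0.304% and 0.982% of the let-7c counts in animals 1, 2 and 3, with Wilson 95% confidence intervals of 0.156 to 0.310, 0.226 to 0.409 and 0.739 to 1.30. For let-7a it made 0.475% (0.447 to 0.505), 0.822% (0.779 to 0.867) and 1.19% (1.11 to 1.27). For let-7e it made 0.888% (0.767 to 1.03), 1.05% (0.930 to 1.19) and 2.03% (1.74 to 2.37). In these 3 names the interval of animal 3 lay above those of both other animals. Their guides were the 3 with the largest drop from animal 1 to animal 3, so the shares restate that difference in part. How many hairpins outside the family have such intervals was not counted. For let-7f and let-7g the shares stayed between 0.0841% and 0.136%. In let-7b the share was 1.79% in animal 1 and 3.07% and 3.10% in animals 2 and 3.

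**Figure D4:**
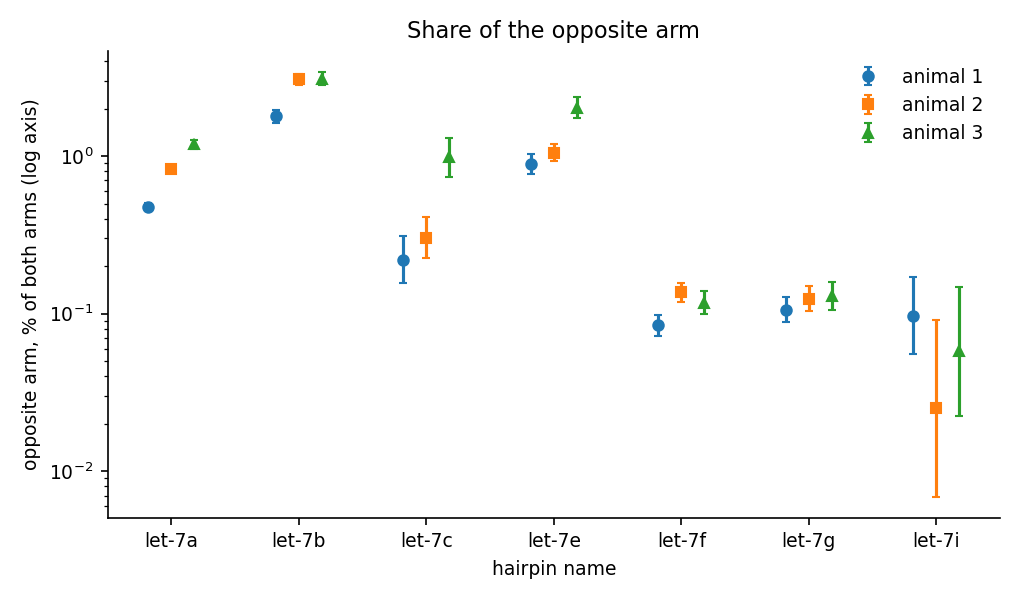
Share of the opposite arm in the counts of both arms (%, log axis) for 7 let-7 hairpin names in animals 1, 2 and 3, with Wilson 95% confidence intervals. For let-7a, let-7c and let-7e the value of animal 3 lies above the intervals of both other animals, at 1.19%, 0.982% and 2.03%.

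Several let-7 genes lie in clusters with genes of the miR-99/100 and miR-125 families, which in primates are transcribed together with them. miR-100 and miR-125b accompany a let-7a gene, miR-99a and miR-125b accompany let-7c, and miR-99b and miR-125a accompany let-7e. The 5 partners together took 5.12%, 5.98% and 8.66% of the counts in animals 1, 2 and 3. All 5 passed the chi-square test (80.6% of the 391 miRNAs did) and all 5 were highest in animal 3 (39.6% of the 391). Their log2 differences, animal 3 minus animal 1, were between 0.67 and 1.30, with a median of 0.94. The members, by contrast, had a median of -0.60.

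The contrast was also seen between the mature miRNAs named for each cluster, whose counts are not split by gene. miR-125b-5p, for example, is named with both let-7a and let-7c. let-7e-5p had 2.43, 1.75 and 0.436 times the counts of miR-99b-5p in animals 1, 2 and 3, and miR-99b-5p itself had 8170, 13323 and 17164 counts. let-7c-5p had 0.987, 0.558 and 0.184 times the counts of miR-99a-5p, which had 14741, 25311 and 25816 counts. let-7a-5p, which has further genes outside this cluster, had 9.41, 5.79 and 1.94 times the counts of miR-100-5p, which had 22779, 27696 and 36079 counts. miR-125b-5p and miR-125a-5p had the most counts of the partners, at 92116, 108387 and 151099 and at 82583, 106818 and 112604. The summed family held 2.68 and 1.73 times the counts of the summed partners in animals 1 and 2, and 0.886 times in animal 3.

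**Figure D5:**
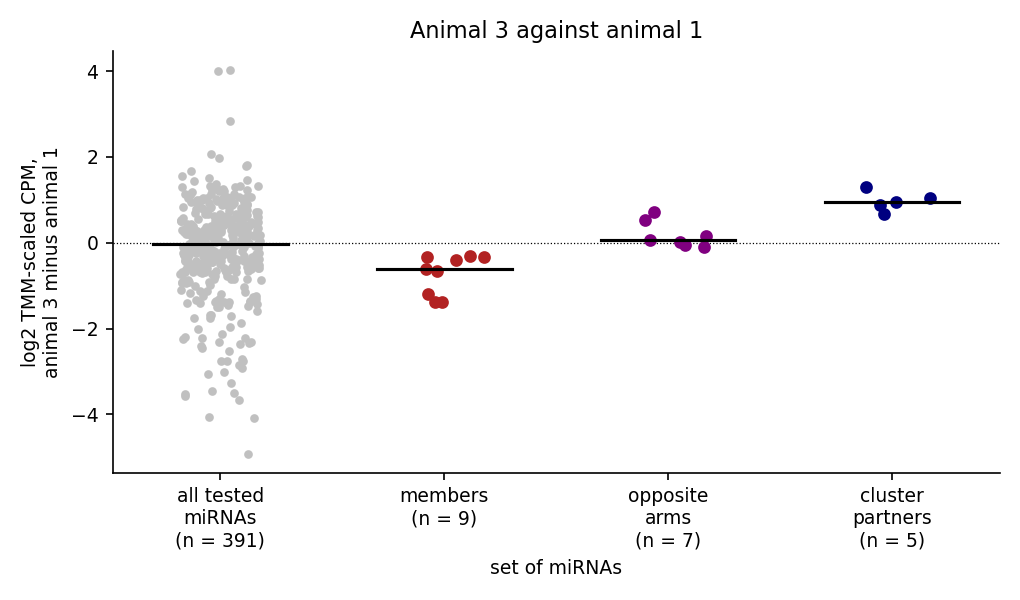
Log2 difference in TMM-scaled CPM, animal 3 minus animal 1, for each of 391 tested miRNAs, the 9 let-7 guide strands, 7 of their opposite arms and the 5 cluster partners, with a bar at the median of each set. The members lie between -1.39 and -0.32, the opposite arms between -0.09 and 0.71 and the partners between 0.67 and 1.30.

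The miRNAs outside the family with the most similar pattern over the 3 libraries were sought among 170 non-members with a mean of at least 100 CPM. Likeness was the root mean square distance between log2 values centred on their own means. The nearest to the summed family were miR-411-5p at 0.02, with 782, 664 and 416 counts in animals 1, 2 and 3, miR-495-3p at 0.04, with 807, 628 and 415 counts, and miR-144 at 0.07, with 2724, 1995 and 1289 counts. miR-411 and miR-495 belong to the imprinted DLK1-DIO3 cluster, and miR-144 is an erythroid miRNA. The nearest to let-7a-5p alone was miR-146a-5p, a miRNA induced in inflammation, at 0.15, with 2416, 1618 and 916 counts. The median distance of all 170 candidates was 0.43 from the summed family and 0.68 from let-7a-5p. Over 3 libraries such likeness is a description only.

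The authors' deposited table of normalized values also pairs each monkey miRNA with a human one. It pairs 7 of the 9 members with the human miRNA of the same name. let-7d is paired there with human let-7a-5p and miR-98 with human let-7b-5p, so that 4 members share 2 human names, and the opposite arm let-7f-3p is paired with human let-7b-3p. Of 405 miRNAs in the table with a human name, 35 carry a different one. A different name need not mean another miRNA, as miR-451 is paired with miR-451a and miR-103-3p with miR-103a-3p. Any summary of that table by human name would add let-7d to let-7a-5p and miR-98 to let-7b-5p, and here the members were kept apart by their monkey names.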

How the data were processed

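Small RNA libraries were made from the kidney cortex of 3 animals. Per the labels' protocols, RNA came from 25 to 30 mg of frozen tissue, small RNA was enriched from 5 µg of total RNA, and 12 ng of it entered each library. The authors, per the file headers, matched reads to monkey miRNAs with 0 mismatches and deposited a raw count for each miRNA with at least 15 reads. That minimum applies to the sum over libraries, whose smallest value was 15. The authors' second deposited table holds a normalized signal made with edgeR, per the file headers. For the members this signal equals the count times 0.989, 0.951 and 1.06 in animals 1, 2 and 3, so it was used only as an alternative scaling. The aligner, the version of the reference and how reads fitting more than 1 miRNA were counted are not given in the sources used here. Requiring perfect matches drops reads with any variant or erroneous base, and mature sequences were not used here. Totals are counts assigned to listed miRNAs and not full library depth.

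CPM and shares were computed from raw counts over 4305977, 4707892 and 3957188 listed counts in animals 1, 2 and 3. edgeR 4.0.16 (R 4.3.3) gave TMM factors of 1.01, 1.05 and 0.940. Log2 values are of TMM-scaled CPM + 1, ratios within a library are of raw counts, and a count of 0 entered a span as 3 counts. The chi-square test set each miRNA's counts against the effective library sizes, for the 391 miRNAs averaging 10 or more counts. Adjustment was by Benjamini-Hochberg, with a threshold of 0.05. The simulated data on which the test was checked held counting error and set changes in 1 library, with no other spread between animals. That check therefore gives no error rate for these data. With 1 group, edgeR's tests had no contrast to fit. Alternatives were scaling by DESeq2 1.42.0 size factors, by totals or by the authors' signal, other count minimums, other denominators, leaving out members, and leaving out each animal. Named miRNAs were the 9 members, all listed opposite arms, the 5 cluster partners, and the 3 non-members nearest to the summed family and the 1 nearest to let-7a-5p. Members and lists were chosen with earlier results of these data known. There were 0 further columns of per-sample values.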

Additional observations from a re-analysis of the deposited data

How the results depend on the processing

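The mean share of the family, 10.6%, was 7.19% without let-7a-5p and lay between 9.01% and 12.0% with any single animal left out. The span of 1.66-fold lay between 1.21 and 1.58 with any single animal left out, the lowest value being the one without animal 1. It ranged from 1.63 with DESeq2 size factors to 1.81 with the authors' signal, into which library size does not enter. The number of members passing the chi-square test was 8 without animal 1 and 9 in every other setting run. Neighbouring pairs that met the order rule numbered 3, and between 2 and 7 with any single animal left out, with 7 of 8 without animal 3 and 2 without animal 1. With an animal left out the order had to hold in fewer libraries, and without animal 3 the members were ranked again. These numbers are therefore not comparable with the one over all animals. A rule of intervals apart in every library gave 2. The guide share of 99.5% was 99.2% as a mean over hairpin names and lay between 99.4% and 99.6% with any single animal left out. None of 45 recalculated member levels moved by more than the SD between animals, a limit that leaving out 1 of 3 animals cannot exceed. Summing members that differ by 1 base was not run, since mature sequences were not used here. No paired analysis was possible because all libraries belong to 1 group. Depth limits only the opposite arms, let-7i-3p most, and 3 animals limit every comparison of levels.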
